A study of Glycine max with 12 samples.

Results

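A stretch of soybean chromosome 6, the genes numbered Glyma.06G265000 to Glyma.06G285000, was followed gene by gene in developing seed of a pair of transgenic events and of null seed. The gene table lists 180 identifiers there, and 69 of them had 10 or more counts in 3 or more libraries and make up the block, out of 32246 genes that meet the same count rule in the whole table. The stretch was chosen from changes already seen in event e15 against the nulls. Values of e15 against the nulls or against e19 are therefore given as descriptions with no p-value, while e19 against the nulls was tested.

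The seed came from 3 groups, all of genotype 93Y21 and all collected 35 days after flowering. The e15 group (3 libraries, line code 15A) and the e19 group (3 libraries, line code 19A) are separate transformation events of a construct with the GmUBQ promoter, and their titles mark them HOM. The null group (6 libraries) carries the line code 33A, and the labels do not state how that line is related to e15 or e19. The series title names a deletion variant of the soybean cystathionine gamma-synthase GmCGS2 as the expressed protein, an enzyme of methionine synthesis. Polyadenylated RNA was read as single reads of 100 bases, and library totals were 21988821 to 22849075 counts in e15, 19207771 to 21900491 in e19 and 21357512 to 23276877 in the nulls. Whether replicates are separate plants is not stated, so a p-value here reflects only library-to-library spread, which may be technical. The files used here pair no identifier with a gene name, so roles of the block's genes, seed marker genes and the level of the introduced gene are not given.

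Each transformation event is a separate insertion of the construct into the genome, carried forward as its own line. Genes that lie side by side on a chromosome are inherited together unless recombination separates them. Soybean descends from an ancient polyploid, and many of its genes have near-identical copies elsewhere in the genome or in tandem, between which a read can often not be assigned with certainty. Glyma identifiers number the genes along each chromosome, and the order used here is that of the numbers, since no coordinates were read.

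Of the 69 genes of the block, 68 passed the filter on low counts and were tested, and 55 had at least 10 counts in all 12 libraries. The 1 that was not tested, Glyma.06G275500, had 8, 4 and 4 counts in e15, 8, 4 and 7 in e19, and 5 to 12 in the nulls. It lies just inside the count rule, with 10 or more counts in 3 libraries. So do Glyma.06G265480, with 6 to 8 counts in e15, 1 to 11 in e19 and 2 to 12 in the nulls, and Glyma.06G265500, with 7 to 15, 3 to 7 and 2 to 15. Just outside it lies Glyma.06G265200, with 1 to 3 counts in e15, 1 to 4 in e19, 1 to 11 in the nulls and at least 10 in 2 libraries only. Of the 111 identifiers below the rule, 70 had no count in any library. Counts were not whole in some library for 54 of the 69 genes and in every library for 31. How the authors' counting divided reads between similar genes was not tested.

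In e15, 3 genes of the block were higher and 3 lower than in the nulls at a false discovery rate of 0.05, while 62 were not called. The 6 calls are 8.82% of the genes tested in the block, against 0.754% of all genes tested (0.258% higher and 0.495% lower), a contrast from which the block was chosen. Against e19, e15 was called for 5 of the 6, 2 higher and 3 lower, Glyma.06G275000 being the exception, and for no other gene of the block. Over all genes this comparison called 0.299% (0.109% higher and 0.19% lower). In e19 against the nulls, 0 of the 68 genes were called by edgeR's quasi-likelihood test, against 0.0747% of all genes tested (0.0467% higher and 0.028% lower), and DESeq2 called 0 as well. An unadjusted p under 0.05 was found for 3 of the 68 genes in e19 (edgeR), where no change at all would give a share near 0.05. The smallest adjusted p in the block was 0.673. Both events were set against the same nulls.

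**Figure D1:**
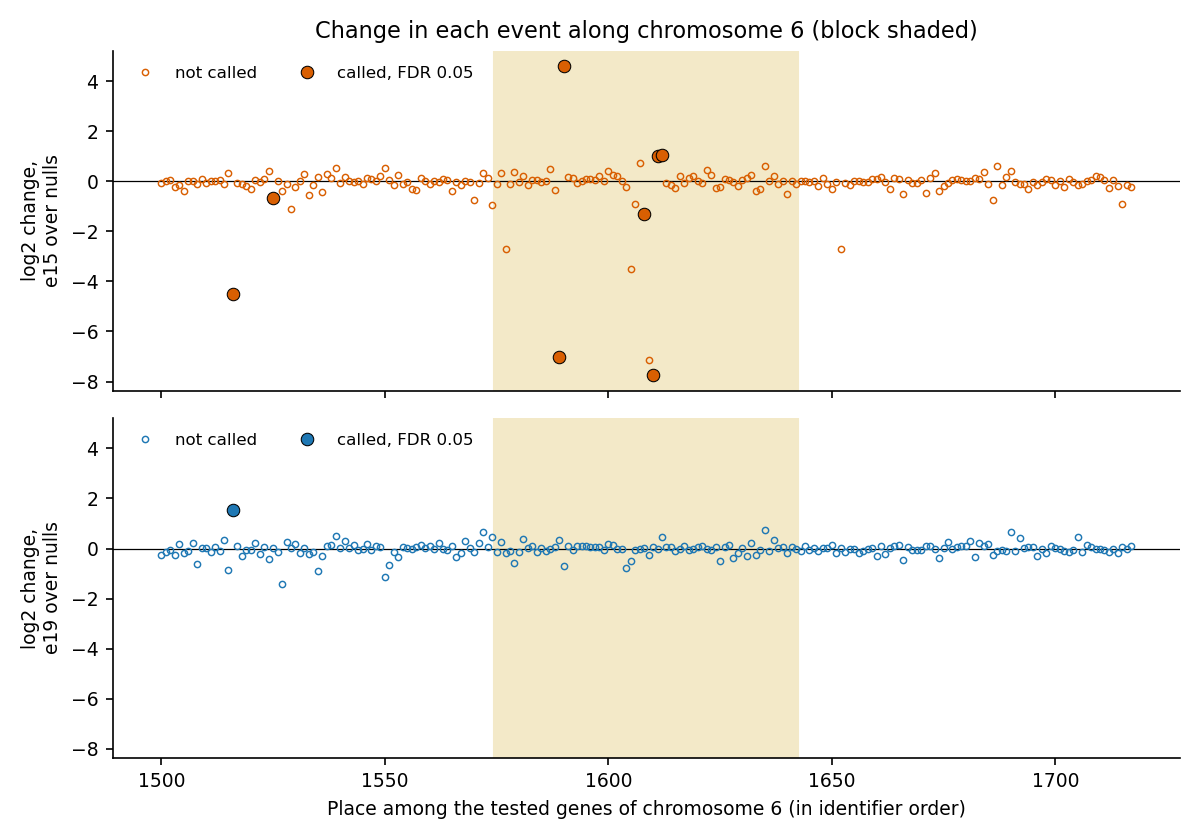
Log2 change over the nulls (vertical axis) of tested genes of chromosome 6 in identifier order (horizontal axis), for e15 above and e19 below, with the block shaded. Filled points were called at a false discovery rate of 0.05: 6 in the block in e15, between places 1589 and 1612, and 0 in the block in e19.

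Reads of 2 genes were present in every null library and at or near 0 in e15. A gene was taken as on in a group when each library held 10 counts or more, and as off when each held 3 or fewer. On this rule 2 genes of the block were on in the nulls and off in e15, where the share over all genes was 0.0186%. No gene of the block was on in e15 and off in the nulls (0.0279% over all genes), and none was off or on in e19 alone (0.0031% over all genes for either).

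Glyma.06G273700 had 0, 0.0948 and 0 CPM (counts scaled to library size) in e15, against 6.89, 9.15 and 7.91 CPM in e19. In the nulls its lowest, median and highest values were 6.73, 7.62 and 8.59 CPM. The 3 e15 libraries stood apart from all others, and those of e19 overlapped the nulls. Together the e15 libraries held 2 counts of it, against 470 in e19 and 1071 in the nulls. The ratio of e15 to nulls was 0.00394, with an exact 95% interval of 0.000476 to 0.0143 that covers counting error only. In e19 its log2 change from the nulls was 0.05, with a 95% interval of -0.21 to 0.30 (adjusted p = 0.950, edgeR).

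Glyma.06G268467 had no count in any of the 3 e15 libraries. Its level was 0.880, 1.05 and 0.817 CPM in e19, and the nulls had 0.408 CPM as the lowest, 0.795 as the median and 0.880 as the highest value. The gene was weakly covered, with 54 counts in e19 and 100 in the nulls in all. A floor of 3 counts per library corresponds to 0.137 CPM in e15, and against it the level in e15 was at least 5.30-fold lower than in the nulls. Its log2 change in e19 was 0.34, with an interval of -0.28 to 0.96 (adjusted p = 0.836, edgeR). Both genes had whole counts in 3 libraries each and counts that were not whole in the other 9. For Glyma.06G268467 the 3 were the e15 libraries, which held 0, so its counts were not whole wherever it had reads. The part of shared reads in the levels of both genes was not tested.

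The next tested gene, Glyma.06G268700, went the other way. It had 19.8, 17.8 and 20.1 CPM in e15, against 0.685, 0.368 and 0.409 CPM in e19. The nulls had 0.509 CPM at the lowest, 0.723 at the median and 1.18 at the highest. Every e15 library lay above every other library, by a wide margin. The means were 19.2 ± 1.26 CPM in e15 (SD, n = 3) and 0.786 ± 0.268 CPM in the nulls (SD, n = 6), which is 24.5-fold, a log2 change of 4.59 ± 0.15 (SE). In e19 it had an unadjusted p of 0.0348 in edgeR's test across all genes, and its log2 change was -0.68 with an adjusted p of 0.698. Counts of Glyma.06G268700 were not whole in any library, and the part of shared reads in its e15 level was not tested.

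The other 3 genes differed in level in e15 without being lost. Glyma.06G272500 had 85.8, 97.1 and 88.2 CPM in e15, against 224, 248 and 220.1 CPM in e19, with 206, 224 and 248 CPM as the lowest, median and highest null. Its means were 90.4 ± 5.94 CPM in e15 (SD, n = 3) and 225 ± 17.9 CPM in the nulls (SD, n = 6), a ratio of 0.402 and a log2 change of -1.32 ± 0.08 (SE). The e15 libraries lay below all of the others, and in e19 the log2 change was 0.04, with an interval of -0.12 to 0.19 (adjusted p = 0.942, edgeR).

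Glyma.06G274200 had 73.2, 90.75 and 83.0 CPM in e15, against 39.3, 42.3 and 37.1 CPM in e19, and its nulls ran from 37.5 over a median of 40.4 to 44.5 CPM. The e15 libraries lay above all of the others. Its means were 82.3 ± 8.81 CPM in e15 and 40.5 ± 2.81 CPM in the nulls, which is 2.03-fold, a log2 change of 1.02 ± 0.07 (SE). In e19 the log2 change was -0.03, with an interval of -0.19 to 0.13 (adjusted p = 0.949, edgeR). Like Glyma.06G272500, it had counts that were not whole in all 12 libraries.

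The least firm of the 6 was Glyma.06G275000, whose counts were whole throughout. It had 4.37, 2.28 and 2.95 CPM in e15, against 2.84, 1.79 and 1.69 CPM in e19 and 1.04, 1.55 and 2.02 CPM as the lowest, median and highest null. The e15 libraries lay above all nulls but overlapped those of e19. Its means were 3.20 ± 1.07 CPM in e15 (n = 3) and 1.54 ± 0.343 CPM in the nulls (n = 6), 2.08-fold. The log2 change of 1.06 was 0.77 without e15 replicate 1, and the call was lost there, without e15 replicate 3 (1.12), without null replicate 2 (0.96), against nulls 4 to 6 alone (1.01) and with library totals in place of TMM scaling (0.96). In e19 the log2 change was 0.46, with an interval of -0.05 to 0.96 (adjusted p = 0.728, edgeR).

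**Figure D2:**
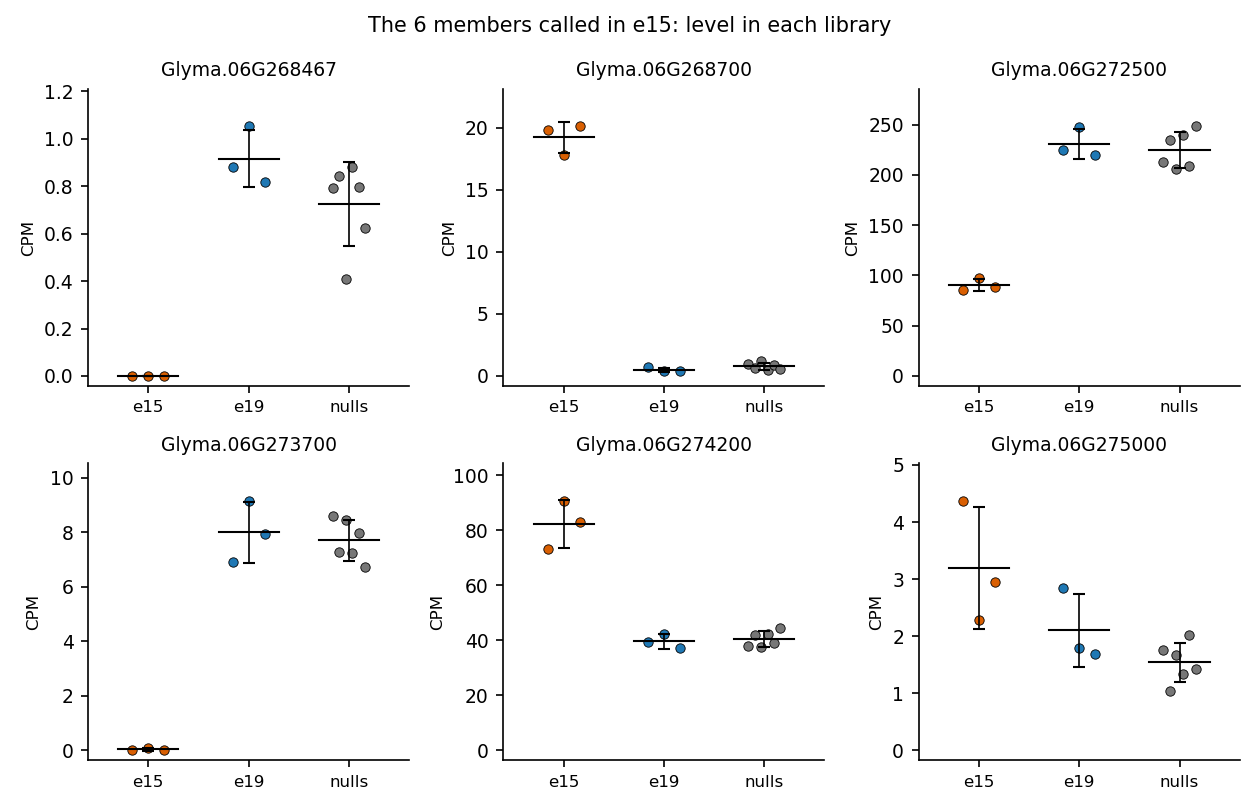
Level in CPM (vertical axes, each gene on its own scale from 0) in every library of e15, e19 and the nulls, for the 6 genes of the block called in e15. Points are libraries, and bars are the mean and SD of 3, 3 and 6 libraries. The e15 libraries lie apart from all others in every panel except that of Glyma.06G275000, where 2.28 CPM in e15 lies below 2.84 CPM in e19.

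Along the chromosome the 6 called genes formed 2 groups. Glyma.06G268467 and Glyma.06G268700 are neighbours among the tested genes, at places 1589 and 1590 of 1870. Then came 17 tested genes with no call, among them Glyma.06G272100, described below. The upper group ran from Glyma.06G272500 to Glyma.06G275000, where 4 of 5 consecutive tested genes were called, 1 lower, 1 off and 2 higher. The exception inside it was Glyma.06G272800. From first to last, the called genes spanned 24 tested genes, of which 18 were not called, so directions were mixed and most genes between the changed ones were not called in e15. With at most 20 tested genes allowed between calls in place of 10, the 2 groups joined into 1 with the same first and last genes.

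Below the first call, 14 tested genes of the block were not called in e15. The nearest of them, Glyma.06G267400, had 4.88, 2.13 and 2.91 CPM in e15, 5.77, 3.26 and 4.03 CPM in e19 and 2.97 to 5.39 CPM in the nulls, so the groups overlapped. Also among the 14 was Glyma.06G265400, with a log2 change of -2.72 in e15, described below. Next to it in number lies Glyma.06G265420, below the count rule, with 1, 0 and 0 counts in e15, 4, 2 and 5 in e19 and 1 to 7 in the nulls. Going further down the chromosome, 63 tested genes lay between the first call and the next gene called in e15, Glyma.06G247100, which had 23.8 ± 4.13 CPM in e15, 37.7 ± 2.23 CPM in e19 and 37.3 ± 3.82 CPM in the nulls, a log2 change of -0.65 in e15. Just beyond it lay Glyma.06G243500, with 72 tested genes between it and the first call. It was almost absent from e15, with 0.140 ± 0.138 CPM in e15, 9.52 ± 3.20 CPM in e19 and 3.22 ± 0.681 CPM in the nulls. In e19 this gene was higher than in the nulls, with a log2 change of 1.56 (adjusted p = 0.0299, edgeR). The other genes of chromosome 6 called in e15 had at least 140 tested genes between them and the first call. Chromosome 6 held 9 called genes outside the block, all below it.

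Above the last call, 30 tested genes of the block were not called, and none of the 258 tested genes from there to the end of the chromosome was called in e15. Between the last call and the next tested gene lies Glyma.06G275100, below the count rule, with 0 counts in every e15 library, 1, 4 and 2 in e19 and 1 to 4 in the nulls. The first tested gene past the last call, Glyma.06G275300, had 1015, 849 and 912 CPM in e15, 875, 996 and 1174 CPM in e19 and 809.6 to 1054.5 CPM in the nulls, and its groups overlapped. At the edges of the identifier range, the log2 change in e15 was -0.09 for Glyma.06G265000 and -0.13 for Glyma.06G285000. It was -0.93 for Glyma.06G263900, the next tested gene below the range, and 0.01 for Glyma.06G285200, the next above, neither of them called.

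Where the block ends depends on the nulls and the test used. With DESeq2 the called genes of the block ran from Glyma.06G265400 to Glyma.06G275700, over 39 tested genes. With nulls 1 to 3 alone, calls joined from Glyma.06G263100, which lies below the block, to Glyma.06G276800 over 52 tested genes, a setting in which e15 was called for 7.38% of all genes. With nulls 4 to 6 alone, where 0.797% were called, they ran from Glyma.06G268467 to Glyma.06G274200.

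A looser view came from asking for which genes all 3 libraries of an event lay above, or all below, the 6 nulls. In e15 this held for 15 of the 68 genes, 8 above and 7 below, which is 22.1% against 5.16% of all genes tested. The block was chosen from this same contrast, so the share is a description and no separate support. Of the 15, 9 were not called, and they were singled out after their values were seen. In the span from the first to the last called gene it held for 8 of 24, among them all 6 called genes. That span was set by the e15 calls, so its share is only a description. Above the span the condition held for 6 of 30 genes of the block and below the span for 1 of 14. In the 20000 identifier numbers below the block it held for 4 of 56 tested genes, and in the 20000 above it for 5 of 91. In e19 it held for 0 of the 68 genes, against 3.15% of all genes tested.

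The genes past the last call that were apart in e15 moved by small amounts, with log2 changes of -0.38 to 0.43. Glyma.06G275700 had 19.7, 18.9 and 19.5 CPM in e15, against 20.5, 22.7 and 22.0 CPM in e19 and 21.4 to 24.7 CPM in the nulls, with a log2 change of -0.28 in e15. Glyma.06G275800 had 34.4, 34.8 and 34.5 CPM in e15, 31.0, 27.8 and 29.9 CPM in e19 and 28.0 to 32.9 CPM in the nulls, a log2 change of 0.20. Both lie within 4 tested genes of the last call. Glyma.06G276900, at place 1623, had 10.7 ± 0.248 CPM in e15 (n = 3), 8.48 ± 0.953 CPM in e19 (n = 3) and 8.91 ± 0.777 CPM in the nulls (n = 6). The last such gene was Glyma.06G283400, at place 1633, with 3.06 ± 0.197 CPM in e15, 3.30 ± 1.16 CPM in e19 and 3.99 ± 0.539 CPM in the nulls.

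**Figure D3:**
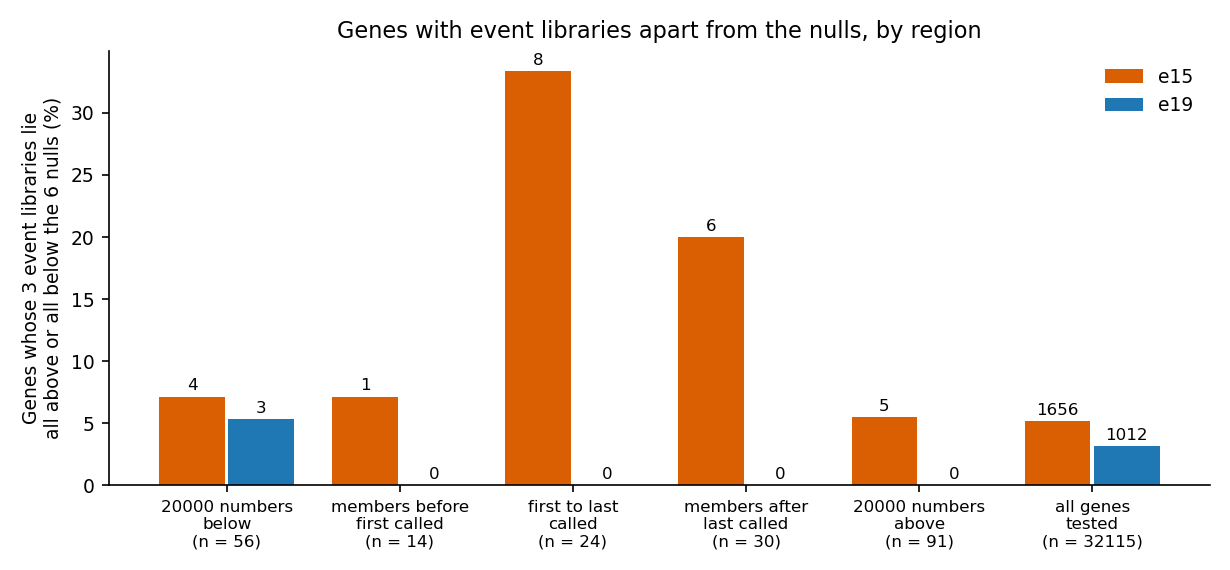
Share of tested genes (vertical axis, percent) whose 3 e15 or 3 e19 libraries all lie above or all below the 6 nulls, by position along chromosome 6 (horizontal axis, with the number of genes tested). Numbers on the bars are genes, and in e15 they are 8 of 24 between the first and last called gene and 6 of 30 after it, while in e19 they are 0 in the block. The e15 calls set that span, and all 6 called genes are among its 8.

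Large changes that were not called in e15 were seen for 3 genes, each with a log2 change beyond 1. Glyma.06G272100, with whole counts in all libraries, had 1.20, 0.759 and 0.478 CPM in e15, against 5.38, 4.52 and 9.91 CPM in e19. The nulls fell into separate ranges, 4.21 to 5.96 CPM in replicates 4 to 6 and 12.7 to 15.3 CPM in replicates 1 to 3. All e15 libraries lay below all others. The ratio of e15 was 0.167 to nulls 4 to 6 and 0.0595 to nulls 1 to 3, and the gene was called against either set alone.

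Glyma.06G265400 had 0.138, 0.0948 and 0.0869 CPM in e15, which is 3, 2 and 2 counts, against 0.880, 0.368 and 0.664 CPM in e19 and 0.178, 0.755 and 1.26 CPM as the lowest, median and highest null. Its e15 libraries lay below the rest, and its counts were not whole in any library. Glyma.06G272800 had 0 counts in the 3 e15 libraries, and 10, 0 and 29 in e19. In the nulls it had 28, 0 and 0 counts in replicates 4, 5 and 6, and 27, 27 and 30 in replicates 1, 2 and 3. Libraries with and without reads of it thus occurred within the nulls and within e19, and its absence is not particular to e15.

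The nulls themselves were not uniform, in the block as among all genes tested. Between replicates 4 to 6 and replicates 1 to 3, edgeR's quasi-likelihood test called 5 genes, 3 higher and 2 lower in replicates 4 to 6, which is 7.35% against 9.59% of all genes tested (4.51% higher and 5.08% lower). The sets did not overlap for 21 of the 68 genes, which is 30.9% against 29.6% of all genes tested. When library totals replaced TMM scaling, 12 genes were called, 2 higher and 10 lower, against 23.4% of all genes tested. With totals, the middle gene of all those tested had a log2 change of -0.20 in this comparison, -0.10 in e15 against the nulls and -0.13 in e19 against the nulls. None of the 6 genes called in e15 was called between the null sets, where their smallest adjusted p was 0.299 (edgeR). They had been called with all nulls pooled, where a difference between null sets makes a call harder. This therefore cannot show that calls in e15 are free of the difference among the nulls.

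Lower in nulls 4 to 6 were the neighbouring genes Glyma.06G272000 and Glyma.06G272100. Glyma.06G272000 averaged 2.18 ± 0.247 CPM in nulls 4 to 6, against 7.41 ± 0.767 CPM in nulls 1 to 3 (SD, n = 3 each), a log2 change of -1.77 (adjusted p = 0.0274, edgeR). In e15 it had 5.99, 3.70 and 2.78 CPM and in e19 1.27, 2.37 and 4.85 CPM, which overlap both each other and the nulls. For Glyma.06G272100 the log2 change between the null sets was -1.49 (adjusted p = 0.00721, edgeR).

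Higher in nulls 4 to 6 were Glyma.06G265700, Glyma.06G269500 and Glyma.06G269700, with log2 changes of 0.62, 0.32 and 0.50. Glyma.06G269700 averaged 161 ± 6.34 CPM in nulls 4 to 6, against 114 ± 5.92 CPM in nulls 1 to 3 (SD, n = 3 each), and its levels were 146 ± 13.7 CPM in e15 and 146 ± 15.7 CPM in e19. With library totals alone these changes were 0.43, 0.13 and 0.30, and the call of Glyma.06G269500 was lost. Against nulls 1 to 3 alone, the same 3 genes were the ones called in e19, with log2 changes of 0.71, 0.28 and 0.36, in a comparison that called 6.24% of all genes. It shares nulls 1 to 3 with the comparison that picked these genes, so the match is no separate finding in e19. Against nulls 4 to 6 alone, where 0.225% of all genes were called, no gene of the block was called in e19. These 5 genes were named after their values were seen.

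**Figure D4:**
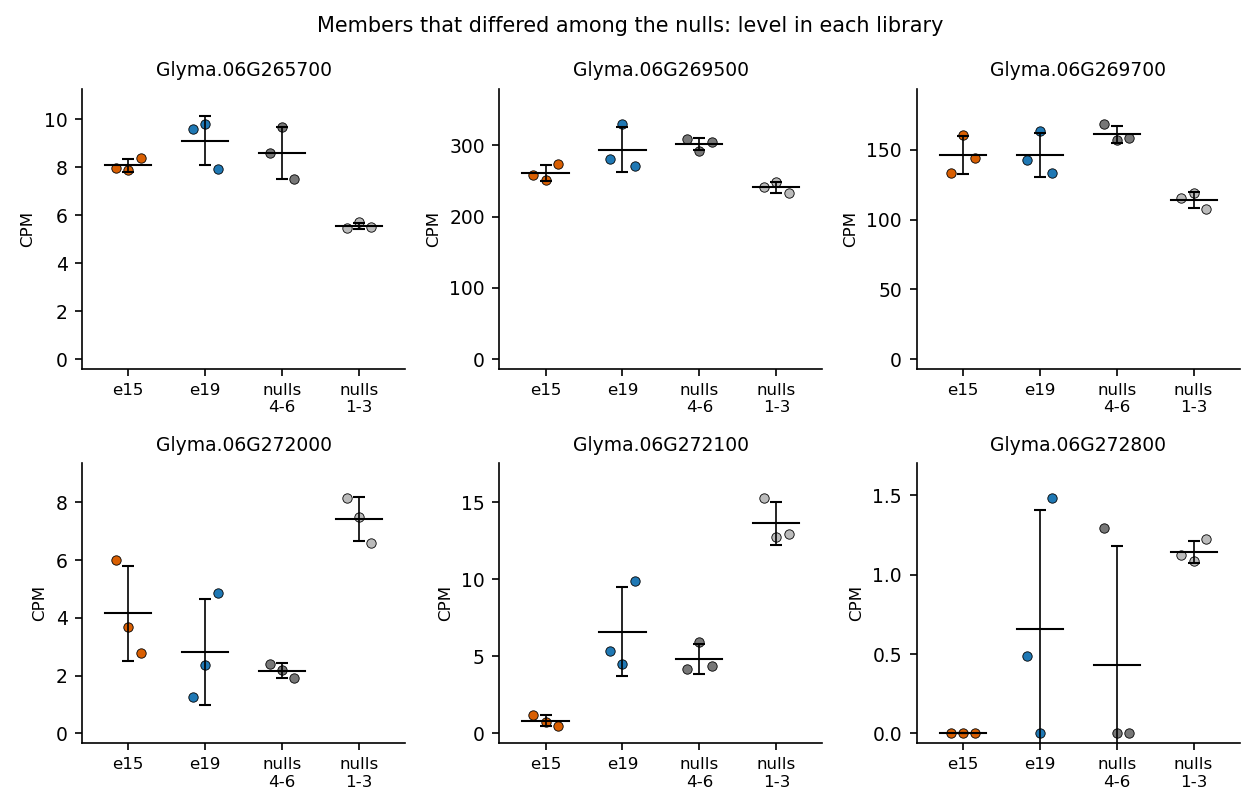
Level in CPM (vertical axes, each gene on its own scale from 0) in every library of e15, e19, nulls 4 to 6 and nulls 1 to 3, for the 5 genes of the block called between the null sets and for Glyma.06G272800. Points are libraries, and bars are the mean and SD of 3 libraries. Nulls 4 to 6 do not overlap nulls 1 to 3 in any panel but that of Glyma.06G272800, where replicates 5 and 6 had no counts.

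The summed level of the 69 genes was 2151 to 2289 CPM in e15, 2262 to 2531 CPM in e19 and 2250.4 to 2418 CPM in the nulls. The ranges overlapped, so the summed level did not separate e15 from the nulls. Much of the sum was Glyma.06G275300, not called, with means of 925 CPM in e15 and 972 CPM in the nulls. The sum therefore says little of the weaker genes. In e15, 37 of the tested genes had a log2 change above 0 and 31 below. The size of the log2 change had a median of 0.19 for e15 and 0.09 for e19, against 0.10 over all genes tested in either event. Among the 62 genes not called it was 0.13 in e15, and 55 of these changed by less than 0.5.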

How the data were processed

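Per the labels' protocols, polyadenylated RNA was made into stranded libraries and sequenced. The authors deposited estimated counts per gene in 1 table with the tag W82a4v1, and 28752 of its 52872 genes held at least 1 fractional value (tolerance 5e-04). The sources used here name no aligner or counting program and do not say whether counting used strand, so overlapping, antisense and near-identical genes are uncertain. All columns were used (0 left out). Of the identifiers, 0 matched the RefSeq gene table of Glycine_max_v4.0, so no gene names or sequences are given.

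Counts were rounded, filtered with filterByExpr (32115 genes kept), scaled with TMM and fitted together for the 12 libraries, with a mean per group, in edgeR 4.0.16 under R 4.3.3 (quasi-likelihood test, robust setting). Calls are at 0.05 after Benjamini-Hochberg adjustment over all genes tested. Null sets were compared in a fit with 4 groups. DESeq2 1.42.0 was an alternative, as were other scalings, filters, null sets and leaving out each library. CPM use TMM-scaled totals, SEs come from the F statistic, and levels are not comparable between genes because no lengths were used. The fit was tested on data simulated with the same mean for all nulls, so that test does not cover the difference between the null sets. Libraries with the same replicate number did not deviate together (correlations of -0.05 to 0.07), so they were not treated as pairs.

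The genes of the block and all lists were chosen with earlier results of these data known. Genes were named where they were called in an event comparison, on in 1 group and off in another, at the ends of the called genes, or called and next outside the block (at most 5 on each side). Others named were chosen after their values were seen.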

Additional observations from a re-analysis of the deposited data

Results flagged for a closer look

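For 5 genes of the block the change in e15 differed from that in e19, a contrast that the choice of the block involves, so the differences are given as a description. The fitted log2 difference, e15 minus e19, was -7.34 for Glyma.06G268467, 5.28 for Glyma.06G268700, -1.35 for Glyma.06G272500, -7.79 for Glyma.06G273700 and 1.06 for Glyma.06G274200. The values of Glyma.06G268467 and Glyma.06G273700 depend on the prior count, since e15 held 0 and 2 counts of them, and are no bounds.

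Among 22 sets of null values examined (20 genes of the block, the library totals and the summed level), 1 was flagged by Dixon's gap ratio. That ratio divides the gap between the lowest or highest value and its neighbour by the range of the set. Glyma.06G276100 had 9.51 CPM in null replicate 1 and 10.4 to 10.8 CPM in the other 5 nulls. Its counts before scaling, 228 there and 224 to 268 in the others, did not stand apart. Chance flags about 1 in 20 such sets.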

How the results depend on the processing

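Of the 6 genes called in e15, 5 (Glyma.06G268467, Glyma.06G268700, Glyma.06G272500, Glyma.06G273700 and Glyma.06G274200) were called with the same sign in all 22 alternative fits of e15 against the nulls, and Glyma.06G275000 in 17. These fits reuse the libraries from which the block was chosen, so they show dependence on processing and are no replication. The number of genes called in the block was 5 to 7 in e15 and 0 in e19 over the 12 fits that left out a library, 9 in e15 with DESeq2 (0.917% of all genes), 10 with the nulls as 2 subgroups (2.77%) and 13 against nulls 1 to 3 alone (7.38%), where e19 had 3 (6.24%). With replicate number as a block, a fit limited to libraries numbered 1 to 3, it was 12 in e15 (7.34% of all genes) and 3 in e19 (6.08%), close to the same nulls without the block. Only 15 genes of the block had whole counts in every library, including Glyma.06G275500, which was not tested. Among them the number was 1 in e15 against the nulls and 0 in e15 against e19. The share over all genes with whole counts is not given, so the smaller number says nothing of fractional counts. Between the null sets it was 12 with library totals and 4 in each fit that left out a null. With 0 counts required in the off group, 1 gene was off in e15. The called genes spanned 24 tested genes, 23 to 36 when a library was left out, 52 against nulls 1 to 3 alone and 39 with DESeq2, and for the settings with more calls the cause was not tested. Depth limits what can be said of genes near the floor of 0.137 CPM in e15.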
